A study of Rattus norvegicus with 6 samples.

Results

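The genes described here are 10 effectors and secreted factors of the integrated stress response, namely Asns, Chac1, Sesn2, Ddit4, Eif4ebp1, Ppp1r15a, Stc2, Gdf15, Fgf21 and Vldlr. They were chosen by gene symbol, each symbol matched 1 row of the deposited table, and they make up 10 of the 32883 genes listed and 10 of the 16250 tested. Sequencing covered vestibular sensory epithelia of 6 Long-Evans rats. The Control group held 3 rats injected with PBS, and the STREP group held 3 rats injected subcutaneously with streptomycin, an aminoglycoside antibiotic toxic to hair cells (HCs), at 500 mg/kg once a day. In both groups treatment began on postnatal day 21 and lasted 6 weeks, and tissue was taken on the last day. Each group held 2 males (replicates 1 and 2) and 1 female (replicate 3), and each library came from the pooled utricles and cristae of 1 animal.

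In the integrated stress response, kinases that sense amino acid shortage, unfolded protein, haem shortage or double-stranded RNA phosphorylate the translation factor eIF2. General translation then falls while translation of the Atf4 mRNA rises, and ATF4 switches on genes for amino acid supply, for feedback on translation and for hormones that act on other tissues. Aminoglycosides bind ribosomes, and HCs of the inner ear take them up readily. Whole tissue was sequenced, so a change per cell and a change in the number of cells of a type cannot be told apart in any result below.

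The promoters of the members were searched for a short form of the sequence that ATF4 is known to bind with a C/EBP partner. The words searched were chosen after the data had been seen. The word TGATGNAA was searched on both strands, from 250 bases before to 50 bases after the annotated start of each gene (RefSeq, build GRCr8), and a window was held for 9 of the 10 members (all but Eif4ebp1). It was present in Chac1 and Fgf21 and in no window of the other 7, and 3.98% of all 33469 windows held it. A window without this word does not show that a gene lacks such a site, which can differ in letters or lie elsewhere. The cyclic AMP response element TGACGTCA, a palindrome that ATF family dimers can bind, was present in Ppp1r15a alone among these 9 genes, and in 1.83% of all windows. The 50 bases around each match are printed below, with the matched word in capitals. Chac1 and Fgf21 were the members with the largest called rises, while Asns, also called, held no TGATGNAA in its window. Ppp1r15a was not called.

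Chac1, chr3:126795946-126795995, + strand: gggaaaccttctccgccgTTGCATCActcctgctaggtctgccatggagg
Fgf21, chr1:105221488-105221537, - strand: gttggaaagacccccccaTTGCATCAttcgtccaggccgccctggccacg
Ppp1r15a, chr1:105139631-105139680, - strand: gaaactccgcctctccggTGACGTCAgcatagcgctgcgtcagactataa

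Each line reads 5′ to 3′ on the strand of its gene. Chac1 and Fgf21 held the same 8 letters, the reverse complement of the searched word, with the first letter 167 bases before the start of Chac1 and 143 before that of Fgf21. The element of Ppp1r15a began 66 bases before its start. The match is a description of these windows, and binding was not measured.

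Of the 10 members, 4 were called higher in STREP animals and 0 were called lower. A call required an adjusted p-value below 0.05 in DESeq2 together with a change of more than 1.5-fold, which is 0.58 on the log2 scale. Over all genes tested, 1.87% were called higher and 1.37% lower. The called members were Asns, Chac1, Fgf21 and Eif4ebp1. With an unadjusted p-value under 0.05 in DESeq2, 5 members were higher and 0 lower. No share over all tested genes was taken at that unadjusted limit, here or below. The edgeR quasi-likelihood test called 3 members higher and 0 lower, against 0.924% called higher over all genes that it tested. In 6 of the 10 members every STREP animal lay above every Control animal, which was so for 9.12% of all tested genes. In 0 members was every STREP animal below every Control animal, against 8.63% of tested genes. The median log2 fold change was 0.69 over the members and 0.0069 over all tested genes.

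**Figure D1:**
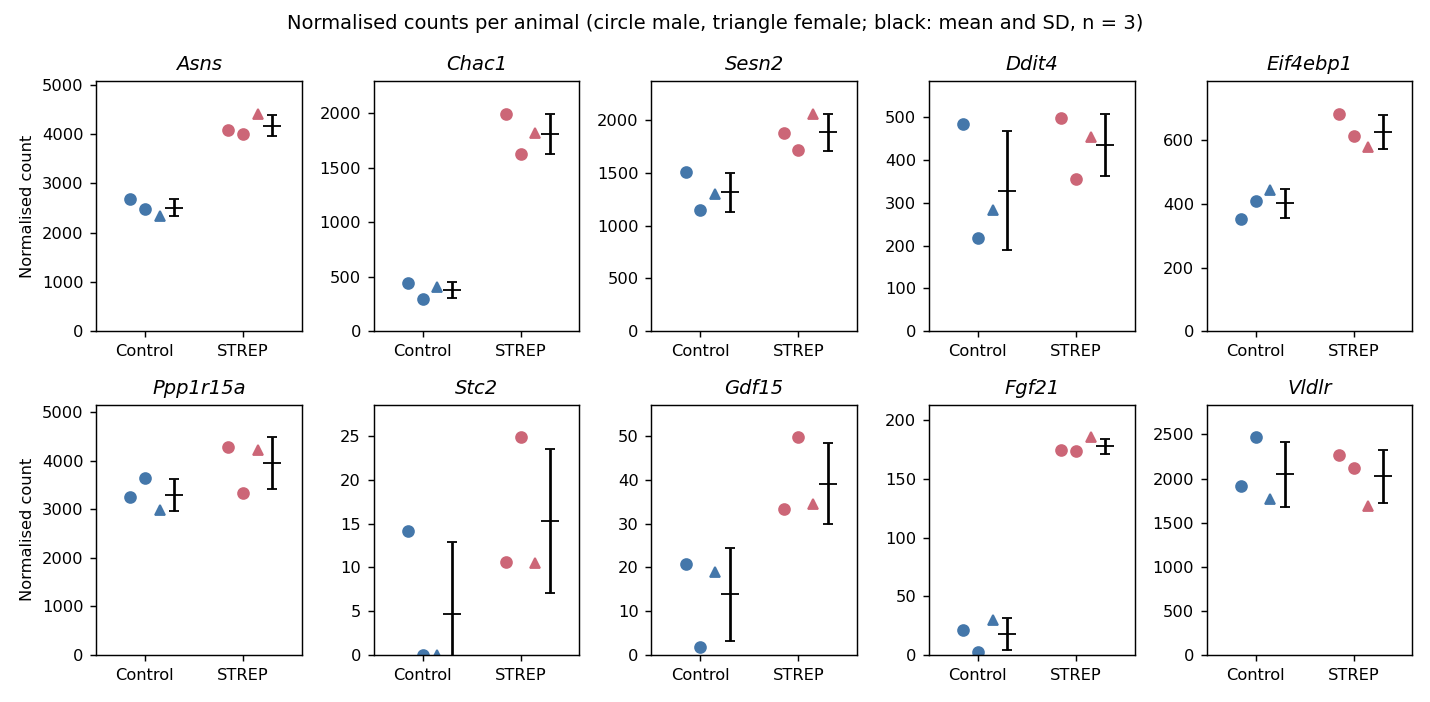
Normalised counts (counts divided by the library's size factor) of each member in each animal, on a linear axis from 0 that differs between panels. Circles are males and triangles females, and the black marks give the mean and SD of 3 animals, with bars ending at 0 where they would pass below it. The STREP animals of Asns, Chac1, Sesn2, Eif4ebp1, Gdf15 and Fgf21 all lie above the Control animals.

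Both enzymes among the members rose. Asns encodes asparagine synthetase, which makes asparagine from aspartate and glutamine. Control replicates 1, 2 and 3 had 2682, 2481 and 2344 normalised counts (replicates are given in this order throughout), whereas STREP replicates 1, 2 and 3 had 4082, 4011 and 4414. The groups lay well apart, since the SD within a group was 170 for Control and 215 for STREP animals and the means were 2502 and 4169 (n = 3). This was a 1.67-fold rise, 0.74 ± 0.13 on the log2 scale (SE, adjusted p = 2.58e-06 in DESeq2).

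Chac1 encodes a gamma-glutamylcyclotransferase that degrades glutathione in the cytosol. Control animals had 441, 292 and 404 normalised counts and STREP animals 1993, 1625 and 1824. Every STREP value was far above the Control range. The means were 379 ± 77.2 and 1814 ± 184 (SD, n = 3), a 4.78-fold rise, or 2.26 ± 0.20 on the log2 scale (SE, adjusted p = 3.71e-26 in DESeq2).

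Of the members that restrain growth signalling by the kinase complex mTORC1 or its output, 1 of 3 was called. Sesn2 encodes sestrin 2, a leucine sensor that restrains mTORC1. The normalised counts were 1506, 1143 and 1295 in the Control animals and 1873, 1711 and 2058 in the STREP animals. The groups did not overlap, but the gap between Control replicate 1 and STREP replicate 2 was small. At 0.52 ± 0.17 the log2 fold change missed both limits (SE, DESeq2 adjusted p = 0.0549). Without Control replicate 1 it was 0.62 and was called (DESeq2 adjusted p = 0.0214).

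Eif4ebp1 encodes 4E-BP1, which holds the cap-binding factor eIF4E away from the initiation complex until mTORC1 phosphorylates it. Normalised counts of 353, 410 and 445 were found in the Control animals and of 684, 613 and 580 in the STREP animals. Every STREP animal was above every Control animal, with means of 403 ± 46.0 and 626 ± 53.1 (SD, n = 3). On the log2 scale the change was 0.64 ± 0.20 (SE, DESeq2 adjusted p = 0.0398). This call sat close to the limit, and it was lost when Control replicate 1 or 2 or STREP replicate 1, 2 or 3 was left out, with log2 fold changes from 0.55 to 0.69 and DESeq2 adjusted p-values from 0.0584 to 0.224. It was also lost with edgeR (adjusted p = 0.139), with sex as a covariate in DESeq2 (log2 fold change 0.64, adjusted p = 0.0510), in males alone, after thinning and with library totals as size factors (DESeq2 adjusted p = 0.154, 0.114 and 0.356).

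Ddit4 encodes REDD1, which restrains mTORC1 through the TSC complex. In the Control animals it had 484, 218 and 283 normalised counts, and in the STREP animals 498, 356 and 453. The groups overlapped, because Control replicate 1 was above STREP replicates 2 and 3. Its log2 fold change was 0.41 ± 0.32, with a 95% interval from -0.22 to 1.03 (SE, DESeq2 adjusted p = 0.719). It was 0.79 without Control replicate 1 and was not called there either.

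Ppp1r15a encodes GADD34, the stress-induced subunit that directs protein phosphatase 1 to dephosphorylate eIF2, which ends the response. Control animals had 3259, 3654 and 2990 normalised counts and STREP animals 4291, 3333 and 4221. STREP replicate 2 lay within the Control range. Its log2 fold change was 0.26 ± 0.16 (SE, DESeq2 adjusted p = 0.561), and its 95% interval, from -0.051 to 0.57, ended below the limit of a 1.5-fold rise.

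The secreted members rested on the fewest counts, at most 161 in any library, and 1 of the 3 was called. Fgf21 encodes fibroblast growth factor 21, a hormone released by stressed liver and muscle that acts through FGF receptors with the co-receptor beta-klotho. The Control animals had 20.9, 2.55 and 30.1 normalised counts, the STREP animals 174, 174 and 185. The STREP values were close to each other (178 ± 6.57), whereas the Control values spread widely for their level (17.8 ± 14.0, SD, n = 3). The rise was 3.31 ± 0.61 on the log2 scale (SE, adjusted p = 6.06e-06 in DESeq2), which ranked 141 from the top among the 16250 tested genes. That rank used the log2 fold change alone, whatever the SE or the counts of a gene. As raw counts the Control animals held 34, 3 and 35 and the STREP animals 131, 161 and 124, so the rise was seen in the less deeply sequenced libraries. Without Control replicate 2 the rise was 2.81 and was still called.

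Gdf15 encodes growth differentiation factor 15, a circulating member of the TGF-beta family that lowers appetite through a receptor in the hindbrain. Values were 20.9, 1.70 and 18.9 normalised counts in the Control animals and 33.3, 49.7 and 34.4 in the STREP animals. All STREP values were above all Control values, but the raw counts ran from 2 to 46. A log2 fold change of 1.49 ± 0.88 was not called (SE, 95% interval from -0.23 to 3.22, DESeq2 adjusted p = 0.530).

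Stc2 encodes stanniocalcin 2, a secreted glycoprotein. In the Control animals there were 14.1, 0 and 0 normalised counts, and in the STREP animals 10.7, 24.8 and 10.5. All Control counts came from replicate 1, which was above STREP replicates 1 and 3. A count of 0 in Control replicates 2 and 3 allows up to 2.55 and 2.58 normalised counts, and this covers counting error only. Its log2 fold change of 1.68 had an SE of 1.65 (DESeq2 adjusted p = 0.817). With counts this low and Control animals this far apart, a difference was not detectable. Without Control replicate 1, where the remaining Control libraries held 0 counts, the gene was called higher (DESeq2 adjusted p = 0.0406).

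Vldlr encodes the very low density lipoprotein receptor, which takes up lipoproteins and binds reelin. Normalised counts stood at 1916, 2467 and 1765 in the Control animals and at 2265, 2120 and 1687 in the STREP animals. The groups overlapped, and the lowest value in each group was that of the female. A log2 fold change of -0.017 ± 0.19 was found, with a 95% interval from -0.38 to 0.35 (SE, DESeq2 adjusted p = 0.992).

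**Figure D2:**
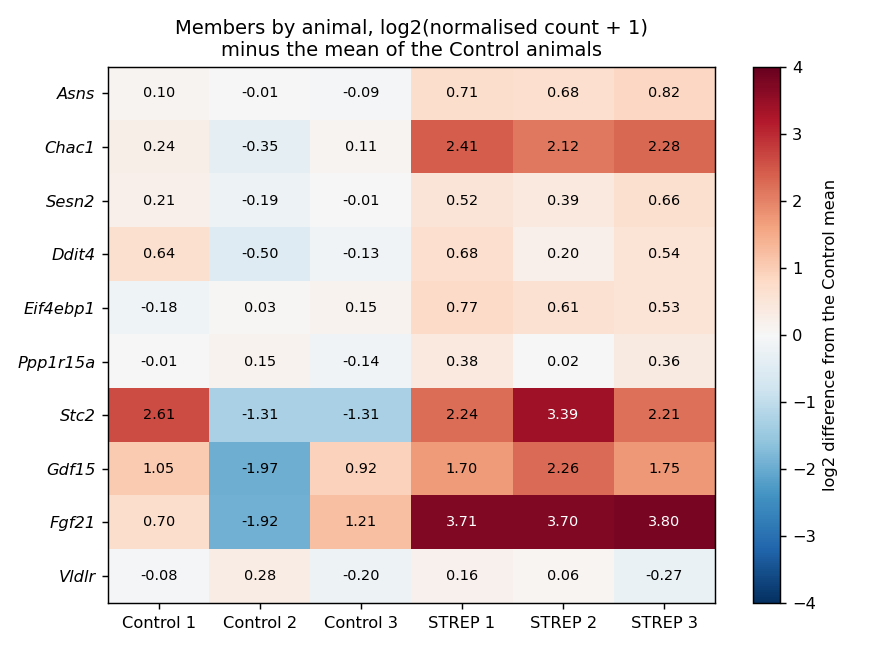
Each cell gives, for 1 member and 1 animal, log2(normalised count + 1) minus the mean of the 3 Control animals. Fgf21 stands between 3.70 and 3.80 in the STREP animals and Chac1 between 2.12 and 2.41, while Control replicate 2 is lowest for Gdf15 (-1.97) and Fgf21 (-1.92).

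The Control animals themselves differed in these genes. Control replicate 2 held the lowest Control value of 6 members, a tie at 0 for Stc2 included, and Control replicate 1 the highest of 6. On the scale of log2(normalised count + 1), Gdf15 was 1.97 below the Control mean in replicate 2 and 1.05 above it in replicate 1, and Ddit4 was 0.50 below it and 0.64 above it. Without Control replicate 2, 3 members were called higher, and without Control replicate 1, 5 were.

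Each sex was also read alone, with 1 female in each group. In the females, the STREP value was above the Control value for 9 of the 10 members, all but Vldlr. For Chac1 the ratio of STREP to Control was 4.94 in males and 4.51 in females. For Asns it was 1.57 in males and 1.88 in females. For Fgf21 it was 14.9 in males and 6.16 in females. The sex by group interaction, fitted in DESeq2, had an adjusted p-value under 0.05 in 0 of 8 members and in 0.259% of all genes tested for it. At an unadjusted p-value under 0.05 it was found in 0 of 10 members. Stc2 and Gdf15 had no adjusted p-value because of their low counts. Among males alone, 3 members were called higher, Asns, Chac1 and Fgf21.

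Each member with a measured paralogue was set beside it, which asks whether the change lay in the stress-responsive gene or in its family. Of these 8 paralogues, 0 were called by DESeq2 or edgeR. Ddit4l, the relative of Ddit4, is not analysed here. Chac2, the constitutive relative of Chac1, had normalised counts of 211, 196 and 229 in the Control animals and 137, 223 and 136 in the STREP animals (log2 fold change -0.35 ± 0.32, SE, DESeq2 adjusted p = 0.784). The difference between Chac1 and Chac2 on the scale of log2(normalised count + 1) went from 0.82 ± 0.24 to 3.48 ± 0.54 (SD, n = 3), with no overlap (exact two-sided permutation p = 0.1, the smallest that 3 animals against 3 allow). Over the 8 pairs compared, the Benjamini-Hochberg adjusted p from these exact tests was 0.343 for that pair.

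The other sestrins were not called. Sesn1 had a log2 fold change of 0.17 ± 0.14 and Sesn3 of 0.14 ± 0.17 (SE), and the differences of Sesn2 from both overlapped between groups (exact permutation p = 0.2 and 0.3). Eif4ebp2 had -0.060 ± 0.27, with a difference from Eif4ebp1 that rose by 0.71 but overlapped (exact permutation p = 0.2). Ppp1r15b, the constitutive partner of protein phosphatase 1, had 0.20 ± 0.16, close to the value of Ppp1r15a (difference 0.039, exact permutation p = 0.6). Stc1 had 0.26 ± 0.33, and the difference of Stc2 from it overlapped (exact permutation p = 0.3).

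Lrp8, which like Vldlr is a reelin receptor, had a log2 fold change of -0.48 ± 0.28 (SE), and the difference of Vldlr from it overlapped between groups (exact permutation p = 0.3).

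**Figure D3:**
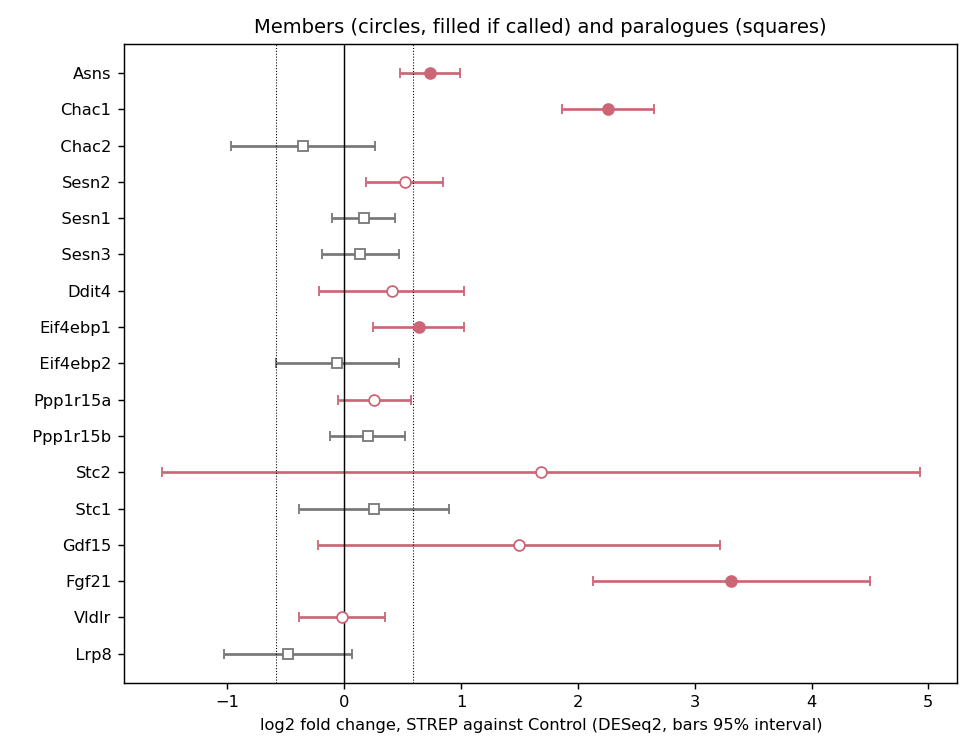
Log2 fold changes of the members (circles, filled where called) and of 7 of their paralogues (grey squares, none called), with 95% intervals from DESeq2. Dotted lines mark a 1.5-fold change either way, and the interval of Chac1 runs from 1.86 to 2.65 while that of Vldlr runs from -0.38 to 0.35.

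Receptors, targets and neighbouring enzymes of the members were taken from a list of 28 partner genes, of which 25 were tested. Of these, 2 were called higher and 1 lower, and the median log2 fold change was -0.059. Fgfr1 and Fgfr3, receptors of the FGF family, rose. Fgfr1 had normalised counts of 5521, 3424 and 6090 in the Control animals and 8689, 7124 and 9137 in the STREP animals (log2 fold change 0.73 ± 0.21, SE, DESeq2 adjusted p = 0.0182). Fgfr3 had 749, 967 and 1279 in the Control animals and 1679, 1888 and 1994 in the STREP animals (0.89 ± 0.21, DESeq2 adjusted p = 0.00142). Neither receptor overlapped between groups, but Fgfr1 was not called with edgeR (adjusted p = 0.133), nor without Control replicate 2, STREP replicate 1 or STREP replicate 3, with log2 fold changes from 0.52 to 0.89 over the 6 omissions. Fgfr2, in the same list, overlapped between groups and was not called (0.14 ± 0.14, SE, DESeq2 adjusted p = 0.823). Klb, which encodes beta-klotho, is not analysed here, and Gfral, the receptor of GDF15, had 0 counts in all 6 libraries.

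Among the enzymes in the list, Glul, glutamine synthetase, and Gclc and Gclm, the subunits of the enzyme that starts glutathione synthesis, were not called, at 0.13, -0.059 and 0.27. With edgeR, 1 of the 25 partners was called higher and 0 lower.

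Other genes of the ATF4 programme were read beside the members. Among 39 other ATF4 targets and integrated stress response genes, 14 were called higher and 0 lower with DESeq2, 10 and 0 with edgeR, and 23 and 0 had an unadjusted p-value under 0.05. Their median log2 fold change was 0.55. Atf4 had normalised counts of 3941, 3860 and 5299 in the Control animals and 6749, 7198 and 8672 in the STREP animals (0.79 ± 0.17, SE, DESeq2 adjusted p = 0.000388). Ddit3, which encodes the factor CHOP that induces Ppp1r15a, was not called (0.38 ± 0.18, DESeq2 adjusted p = 0.343).

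Among the called genes of that list with a mean of at least 10 normalised counts, the largest log2 fold changes were at Cebpb, Aldh1l2 and Mthfd2. Cebpb, a C/EBP factor, had normalised counts of 7.98, 0.850 and 5.16 in the Control animals and 168, 197 and 171 in the STREP animals. Aldh1l2, a mitochondrial folate enzyme, had 2.45, 0 and 0 in the Control animals and 32.0, 35.6 and 7.48 in the STREP animals, values that rest on few counts and were called in 2 of the 6 fits without 1 animal, those without Control replicate 1 or STREP replicate 3. Mthfd2, another such enzyme, had 433, 350 and 435 in the Control animals and 2643, 2536 and 3342 in the STREP animals. In all 3 genes Control replicate 2 held the lowest Control value or tied for it, as it did for Chac1, Gdf15 and Fgf21. The word TGATGNAA was present in the promoters of 7 of the 28 genes of this list that had a window, and in 3.98% of all windows. They were Jdp2, Nupr1, Pck2, Pycr1, Slc1a4, Slc7a1 and Trib3. Slc1a4 (log2 fold change 0.80) and Trib3 (0.98) were called higher with DESeq2 but not with edgeR (adjusted p = 0.0759 and 0.0772). The others were not called. Among those others only Slc7a1 (0.57) had a DESeq2 adjusted p-value under 0.05 (0.0234), with a change of less than 1.5-fold. Cebpb, Aldh1l2 and Mthfd2 were not among the genes with the word.

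Genes upstream of ATF4 and of the other arms of the unfolded protein response gave no calls. Among 14 tested genes for the eIF2 kinases and the eIF2 machinery, 0 were called with DESeq2 or edgeR, 0 were higher and 1 lower at an unadjusted p-value under 0.05, and the median log2 fold change was -0.045. Eif2ak4, the kinase GCN2 that senses uncharged tRNA, had -0.52 ± 0.21 (SE, DESeq2 adjusted p = 0.187). Eif2ak3, the kinase PERK of the endoplasmic reticulum, had 0.14 ± 0.20. These kinases act by phosphorylation, which RNA levels do not measure. Among 18 targets of ATF6 and XBP1, which serve protein folding in the endoplasmic reticulum, 0 were called with DESeq2 or edgeR, and the median was 0.016. At an unadjusted p-value under 0.05, 1 of these was higher and 0 lower. It was Sel1l (0.47 ± 0.13, SE, DESeq2 adjusted p = 0.0135), whose change was less than 1.5-fold. Every STREP animal lay above every Control animal for Sel1l.

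**Figure D4:**
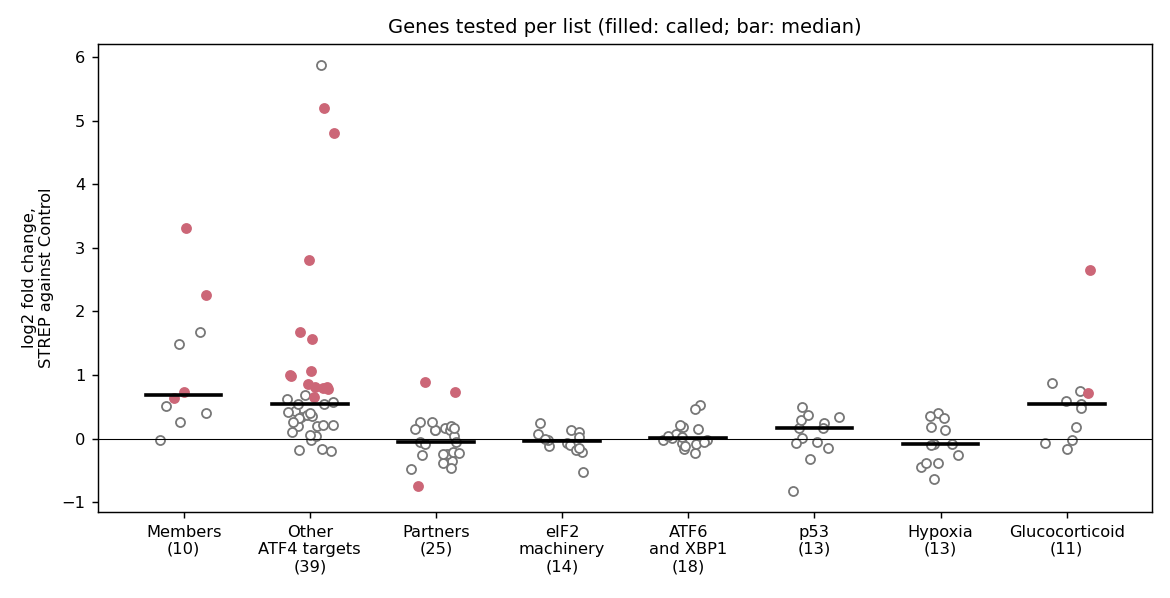
Log2 fold changes of the genes tested in each list, with the number tested in brackets, filled where called by DESeq2. The black bars are medians, at 0.69 for the members and 0.55 for the other ATF4 targets, and between -0.045 and 0.016 for the eIF2 machinery and the ATF6 and XBP1 targets.

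Depth and tissue content were read beside these results. Totals ran from 48568191 to 59906048 counts in Control and from 29333584 to 33744909 in STREP libraries, and after thinning every library to the smallest total 3 members were called higher (Asns, Chac1 and Fgf21). The 10 HC markers had at least 197 counts in every library, and their summed normalised counts ran from 59007 to 65644 in Control and from 52190 to 62150 in STREP animals, with 1 called higher (Gfi1) and 1 lower (Pvalb). The sum was led by Otof, and the median log2 fold change over the 10 HC markers was -0.26. At an unadjusted p-value under 0.05, 1 HC marker was higher and 5 were lower, and in those 5 (Pvalb, Myo7a, Lhfpl5, Tmc1 and Slc17a8) every STREP animal lay below every Control animal, against 8.63% of all tested genes. Myo7a (-0.49) and Lhfpl5 (-0.45) had a DESeq2 adjusted p-value of 0.0162 and 0.0161 but a change of less than 1.5-fold. Supporting cell markers (215571 to 294769 against 192169 to 360454), macrophage markers (3325 to 4860 against 4325 to 5177), vestibular neuron markers (4137 to 4648 against 4022 to 4313), endothelial markers (7544 to 7721 against 7041 to 9682) and fibroblast markers (15735 to 21353 against 14931 to 19812) overlapped between groups, as did the sums for melanocytes (25411 to 26360 against 25824 to 38536), red blood cells (1860 to 6673 against 2923 to 4178) and Schwann cells (243677 to 338519 against 128287 to 271789). The melanocyte sum was nearly all Pmel (0.29), while the other 4 melanocyte markers tested had log2 fold changes from -1.25 to -0.26, and 0 of the 5 were higher and 2 lower at an unadjusted p-value under 0.05 (median -0.96). The 6 Schwann cell markers had log2 fold changes from -0.68 to -0.29, and 0 were higher and 3 lower at that p-value (median -0.51). The supporting cell sum was led by Sparcl1 (-0.072) and Gjb6 (-0.076). At that p-value, 2 of 9 supporting cell markers and 2 of 7 macrophage markers tested were higher and 0 lower (medians 0.078 and 0.28). Fibroblast markers had 1 higher and 1 lower, neuron markers 1 and 0, and endothelial markers 0 and 0. Dark and transitional cell markers, from the secretory epithelium beside the sensory patches, did not overlap (48278 to 53744 against 34169 to 41388). Of these 7 markers 0 were called with DESeq2 or edgeR, and 0 were higher and 3 lower at an unadjusted p-value under 0.05. In 2 of the 7 (Atp1b2 and Slc12a2) every STREP animal lay below every Control animal, against 8.63% of all tested genes. Slc12a2 (-0.55) had a DESeq2 adjusted p-value of 0.0035 but a change of less than 1.5-fold. Of the markers tested, 1 neuron marker (Tubb3) was called higher and 1 Schwann cell marker (Prx) lower, calls that edgeR did not make and that held in 2 and 1 of the 6 fits without 1 animal. The part of depth and tissue content in the members' changes was not tested further.

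**Figure D5:**
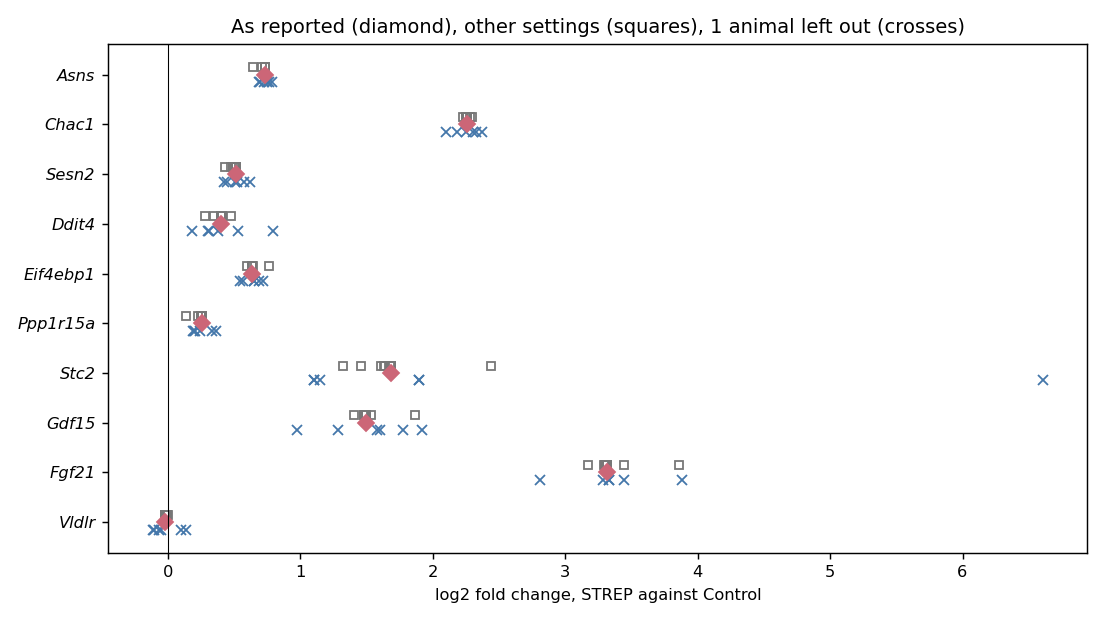
Log2 fold change of each member as reported (diamonds), under 11 other settings (grey squares, 10 for Stc2) and with 1 animal left out (blue crosses). Chac1 stays between 2.10 and 2.38 and Fgf21 between 2.81 and 3.89, whereas Stc2 runs from 1.11 to 6.61.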

How the data were processed

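RNA of the vestibular epithelium was sequenced from 3 Control and 3 STREP rats, grouped by the treatment labels. The authors aligned reads with STAR 2.5.3a and quantified genes with RSEM 1.3.0 (per the submitters' processing notes), using the Rnor6.0 build, and deposited expected counts, not scaled between libraries. Of these values 0 were not whole, so rounding changed none. RSEM divides reads among similar genes, so close copies are uncertain.

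The whole table was fitted with DESeq2 1.42.0 in R 4.3.3 (size factors by median of ratios, group as factor, Wald test, independent filtering, Benjamini-Hochberg adjustment), with calls at an adjusted p-value under 0.05 and a fold change over 1.5, as in the study's methods. edgeR 4.0.16 was an alternative. The floor was 3 counts, between 0.0501 and 0.102 CPM. Intervals of fold changes are 95% normal intervals, and with 3 animals a group they rest on the spread between animals shared across genes. Replicates were numbered in order of deposition, and the labels used name no batch for the 6 libraries. Both fits were tested on simulated counts with known changes.

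The members and lists were chosen with earlier results of these data known, and the promoter words were chosen after the data had been seen. Outside the members, the text names called partner genes and paralogues (of each, 1 gene is counted but not reported here by name), at most 3 called genes in each direction per other list (mean normalised count of at least 10), and the 5 genes most like the members in pattern (mean of at least 100). Others named were chosen after their values were seen. These were Atf4, Ddit3, Eif2ak3, Eif2ak4, Glul, Gclc, Gclm, Gfral, Fgfr2, Sel1l and the ATF4 list genes that held the word TGATGNAA. Among cell type markers they were Otof, Myo7a, Lhfpl5, Tmc1, Slc17a8, Pmel, Sparcl1, Gjb6, Atp1b2 and Slc12a2.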

Additional observations from a re-analysis of the deposited data

How the results depend on the processing

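The number of genes called over the whole table was 527, and it was 264 and 295 with edgeR with and without a count filter, 309 with library totals as size factors and 82 when the Wald test itself was set against a 1.5-fold change. In that last setting 2 members were called (Chac1 and Fgf21), and in the other settings run 3 or 4 (3 with sex as a covariate, without Eif4ebp1). With 1 animal left out, 424 to 517 genes were called and 3 to 5 members were called higher, and 0 members were called lower in any fit. Chac1 and Fgf21 kept their call in all 17 fits and Asns in 16, while Eif4ebp1 kept it in 5. Of 169 values of members, 152 kept direction and call, 13 lost a call, 2 gained one (Sesn2 and Stc2 without Control replicate 1) and 2 changed sign, both of Vldlr, which ran from -0.11 to 0.14 with 1 animal left out. The difference between Ppp1r15a and Ppp1r15b ran from -0.064 to 0.14. Stc2 was too low for a value under the filter of 10 counts in 3 samples. Low counts limit Stc2 and Gdf15, and 3 animals a group limit the exact tests. No paired analysis was made, because the Control and STREP animals were different rats. The cause of these shifts was not tested.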

Other observations

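Some members also answer to other regulators, so lists for these were read in the same fit. Among 13 tested targets of p53, which can induce Sesn2 and Gdf15, 0 were called with DESeq2 or edgeR, 1 was higher and 1 lower at an unadjusted p-value under 0.05, and the median log2 fold change was 0.17. Sesn1 stood both there and among the partner genes. Among 13 tested hypoxia targets, a programme that includes Ddit4 and Vldlr, 0 were called with DESeq2 or edgeR, 0 were higher and 2 lower at an unadjusted p-value under 0.05, and the median was -0.092. Among 11 glucocorticoid targets, a programme that also includes Ddit4, 2 were called higher and 0 lower with DESeq2 and 1 and 0 with edgeR. At an unadjusted p-value under 0.05, 5 of them were higher and 0 lower, and the median was 0.54. The 2 called with DESeq2 were Fkbp5, which binds the chaperone complex of the receptor (89.4 ± 76.2 in Control and 562 ± 179 normalised counts in STREP animals, SD, n = 3, log2 fold change 2.65), and Klf9, a transcription factor (1548 ± 366 and 2536 ± 518, log2 fold change 0.71). Fkbp5 kept its call in 3 of the 6 fits without 1 animal, not without Control replicate 1, STREP replicate 2 or STREP replicate 3 (2.18 to 3.52). Klf9 kept it in 2, those without Control replicate 3 or STREP replicate 3 (0.53 to 0.87).

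Among the 12124 genes that averaged 100 or more normalised counts, those whose values over the 6 animals were most like the mean of the standardised members were Tm9sf3, Pdcd4, Gas6, E2f6 and Vangl2, with Pearson r from 0.989 to 0.995. The 6 values form 2 groups, so this is a description. Pdcd4 encodes an inhibitor of the translation factor eIF4A (1809 ± 237 and 2968 ± 99.4 normalised counts, log2 fold change 0.71), Gas6 a secreted ligand of the TAM receptors (2732 ± 292 and 3966 ± 131, 0.54) and Vangl2 a planar polarity protein (1541 ± 119 and 1997 ± 47.4, 0.37). Tm9sf3 (0.68) and E2f6 (0.94) were called higher, as was Pdcd4, whereas Gas6 and Vangl2 were not. Without Control replicate 1 Gas6 was called (0.61).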
